A study of Homo sapiens with 6 samples.

Results

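The 9 genes described here encode enzymes that carry squalene to cholesterol. They were SQLE, LSS, CYP51A1, TM7SF2, MSMO1, NSDHL, HSD17B7, EBP and DHCR7, named in the order of their steps and read by symbol from a table of 26902 genes. All 9 were in the table and all 9 passed the filter on low values. RNA came from HMCB, an established human melanoma cell line whose labels give the genotype Nras Q61K, in 2 groups that shared this background. One group received an siRNA against AHCYL1 (siAHCYL1, 3 libraries) and the other a control siRNA (siNC, 3 libraries), and RNA was taken at 3 days, per the series design. The study asks how AHCYL1, which binds IP3 receptors, channels for calcium release from the endoplasmic reticulum, promotes growth of NRAS-mutant melanoma cells. A single cell line was used, and whether the siRNA was 1 sequence or a pool is not stated. The replicates are labelled biological, but no label names separate cultures, so p-values reflect the spread between these libraries, part of which may be technical.

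Cholesterol is made in the endoplasmic reticulum from squalene in a chain of oxygen- and NADPH-dependent steps. SQLE adds oxygen to squalene, LSS closes the rings to give lanosterol, and the enzymes that follow strip methyl groups, move a double bond and reduce what remains. When membrane sterol is low, the transcription factor SREBP-2, encoded by SREBF2, is cut from its membrane anchor and raises transcription of these genes together, acting with NF-Y and SP1. Cells with much sterol instead hold SREBP-2 back and take less cholesterol up.

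Values are TPM, read abundance scaled by the length of the transcript and by the library total, so levels can be set side by side between genes. The siRNA target was lower in each siAHCYL1 library: AHCYL1 had 13.5, 11.1 and 11.0 TPM in siAHCYL1, against 150, 134 and 131 TPM in siNC (log2 fold change -3.44, SE 0.096, limma adjusted p = 5.64e-08; exact two-sided permutation p = 0.1, the smallest that 3 against 3 allows). Of all 13266 genes tested, 6844 (51.6%) had an adjusted p under 0.05, 30.4% higher and 21.2% lower, so a call on its own is common in these libraries. Higher genes made up 58.9% of these calls, a share that median-of-ratios scaling put at 50.2% and quantile normalization at 48.1%. The table keeps no sequencing depth, so counting error is unknown. Of the 8 melanocytic markers checked, SOX10 had 993 to 1027 TPM in siAHCYL1 and 1025 to 1050 TPM in siNC, TYR was listed at 0 in all 6 libraries and MLANA stayed under 1 TPM. Of the 6 tested, 3 were higher and 1 lower in siAHCYL1. DCT, a melanin-synthesis enzyme, had 0.24, 0.15 and 0.62 TPM in siAHCYL1, against 10.8, 11.5 and 11.95 TPM in siNC (log2 fold change -3.23). It reached the 1 TPM filter through the siNC libraries alone, so its call is a description. S100B, a calcium-binding protein of this lineage, had 32.3, 28.6 and 26.1 TPM in siAHCYL1, against 10.2, 11.35 and 10.6 TPM in siNC (1.35, limma adjusted p = 9.74e-06). TYRP1 (0.87) and PMEL (0.64) were the other higher markers. PMEL had 1.53, 0.76 and 0.34 TPM in siNC, so it met the filter through the siAHCYL1 libraries and its call is a description. The TYRP1 call was lost without replicate 1 of both groups (limma adjusted p = 0.0608). The PMEL call (limma adjusted p = 0.0484) was lost in 5 of the 6 fits without 1 library (adjusted p up to 0.163). It was also lost under median-of-ratios scaling (0.0596), quantile normalization (0.0609), a pseudocount of 0.1 (0.0627) and no filter (0.0636).

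Of the 9 enzymes, 8 changed after the AHCYL1 siRNA, 6 of them lower (SQLE, CYP51A1, MSMO1, NSDHL, HSD17B7, DHCR7) and 2 higher (LSS, TM7SF2), while EBP did not pass the test. Calls over all tested genes were 51.6%, with 21.2% lower and 30.4% higher. The groups did not overlap in the 8 enzymes that changed, which 59.2% of all tested genes also showed. By direction, 6 of the 9 lay wholly lower (24.5% of all tested genes) and 2 wholly higher (34.7%). HSD17B7 and DHCR7 were at least 2-fold lower, a call that 3.54% of all tested genes met. The median log2 fold change was -0.57 over the 9 enzymes and 0.06 over all tested genes. The 9 genes together held 333, 328 and 330 TPM in the siAHCYL1 libraries, against 408, 413 and 407 TPM in the siNC libraries, or 80.8% of the control level. The summed level therefore differed less than most of its parts, since LSS and TM7SF2 rose and EBP, the most abundant of the 9, did not pass. In RNA from bulk cells, fewer cells of a kind and less RNA per cell cannot be told apart.

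**Figure D1:**
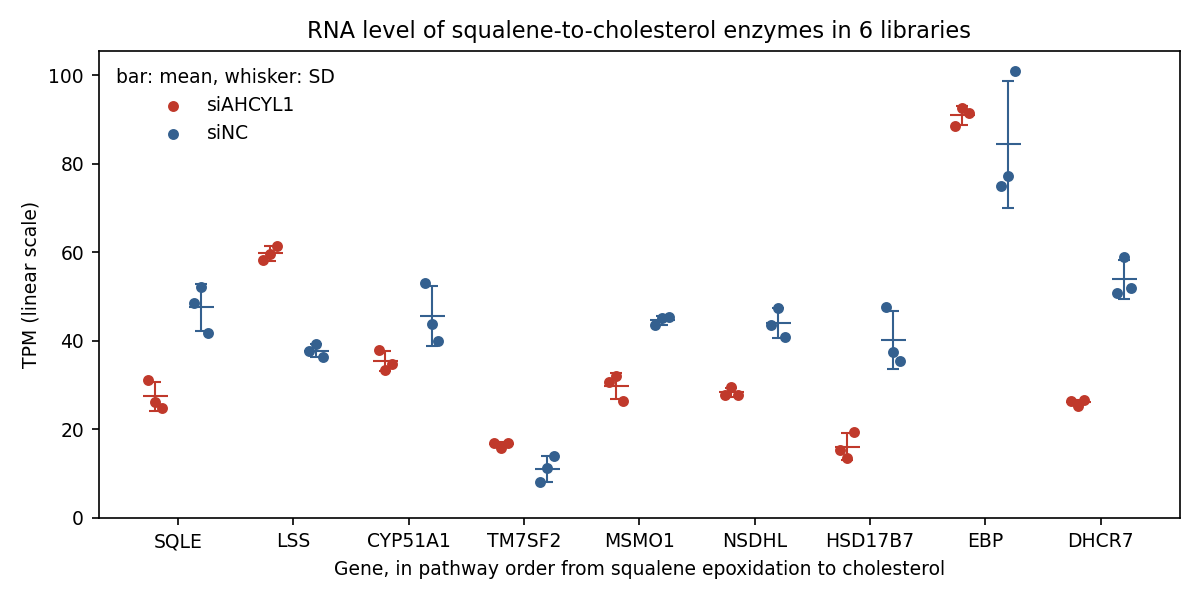
TPM of the 9 enzymes in pathway order, with siAHCYL1 libraries in red and siNC libraries in blue, 3 points each, the mean as a bar and the SD as a whisker. The red points lie below the blue ones for SQLE, CYP51A1, MSMO1, NSDHL, HSD17B7 and DHCR7, above them for LSS and TM7SF2, and within their range for EBP.

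Promoter sequences are shown for the enzymes with the largest falls, HSD17B7 and DHCR7, and for LSS and TM7SF2, which rose, so that genes that moved in opposite directions can be read side by side. Each window runs from 250 bases before to 50 bases after an annotated start, is read 5′ to 3′ along the gene, and comes from RefSeq on GRCh38.p14. Capitals mark CCAAT, the core motif of NF-Y, on either strand (ATTGG on the other). The HSD17B7 window is chr1:162790452-162790751 (plus strand), that of DHCR7 chr11:71448344-71448643 (minus strand), that of LSS chr21:46228725-46229024 (minus strand) and that of TM7SF2 chr11:65111622-65111921 (plus strand).
HSD17B7: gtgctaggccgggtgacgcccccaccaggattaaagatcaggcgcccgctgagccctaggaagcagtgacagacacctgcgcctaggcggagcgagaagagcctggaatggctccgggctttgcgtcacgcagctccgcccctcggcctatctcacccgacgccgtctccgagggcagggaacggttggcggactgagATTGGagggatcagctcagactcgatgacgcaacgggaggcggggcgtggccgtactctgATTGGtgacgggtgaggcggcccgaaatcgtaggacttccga
DHCR7: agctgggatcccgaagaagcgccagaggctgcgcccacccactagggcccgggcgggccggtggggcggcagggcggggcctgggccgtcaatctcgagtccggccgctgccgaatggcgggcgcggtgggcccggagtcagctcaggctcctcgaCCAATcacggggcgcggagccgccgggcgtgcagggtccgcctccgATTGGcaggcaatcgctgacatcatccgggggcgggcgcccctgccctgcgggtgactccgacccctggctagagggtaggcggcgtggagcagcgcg
LSS: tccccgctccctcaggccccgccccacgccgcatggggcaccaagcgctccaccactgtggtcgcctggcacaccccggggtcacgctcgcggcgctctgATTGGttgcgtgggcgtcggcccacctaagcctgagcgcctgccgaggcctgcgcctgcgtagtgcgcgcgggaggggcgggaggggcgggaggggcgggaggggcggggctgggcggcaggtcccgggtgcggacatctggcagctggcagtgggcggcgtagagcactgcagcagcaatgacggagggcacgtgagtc
TM7SF2: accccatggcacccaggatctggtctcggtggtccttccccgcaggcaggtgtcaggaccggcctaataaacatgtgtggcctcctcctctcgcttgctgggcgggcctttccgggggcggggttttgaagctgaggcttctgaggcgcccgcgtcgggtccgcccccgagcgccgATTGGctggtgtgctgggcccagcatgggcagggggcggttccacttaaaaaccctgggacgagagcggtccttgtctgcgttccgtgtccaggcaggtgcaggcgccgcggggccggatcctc

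RefSeq windows were matched for 8 of the 9 enzymes, all but SQLE. CCAAT was found in 7 of these 8 and in 39.7% of 27305 genes with a window. It occurred 5 times in NSDHL, counting an overlapping pair on opposite strands, 4 times in MSMO1, 3 times in EBP, 2 times each in HSD17B7 and in the DHCR7 window printed above, and 1 time each in LSS and TM7SF2. CYP51A1 held none, nor did a second annotated DHCR7 window. The GC box GGGCGG, a core motif of SP1, was found on either strand in 7 of 8 and in 48.3% of all genes with a window, with overlapping matches counted. LSS held 7 copies, TM7SF2 and the printed DHCR7 window held 4 each, and NSDHL held 0. A form of the sterol regulatory element spelled TCACNCCAC was in 0 of 8 windows and in the windows of 1.39% of all genes, which says only that these letters are not in the windows searched. The 27305 genes were neither limited to genes expressed here nor matched for GC content, so whether these motifs are enriched was not tested. A match describes the sequence and is no evidence of binding.

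The first 2 steps moved in opposite directions. SQLE, squalene epoxidase, is an oxygen-dependent enzyme often counted as a rate-limiting step of this stretch (GRCh38 chromosome 8, 124998497 to 125022283). It had 31.1, 26.3 and 24.9 TPM in siAHCYL1, against 48.6, 52.3 and 41.8 TPM in siNC, and each siAHCYL1 library lay below each control library. The means were 27.4 ± 3.28 TPM in siAHCYL1 and 47.6 ± 5.30 TPM in siNC (SD, n = 3 each), a log2 fold change of -0.77 (SE 0.11, limma adjusted p = 0.00038). LSS, lanosterol synthase, folds oxidosqualene into the first sterol (chromosome 21, 46188141 to 46228824). It had 58.2, 59.6 and 61.5 TPM in siAHCYL1, against 37.7, 39.3 and 36.4 TPM in siNC. The libraries of each group lay close together, and LSS rose to 59.8 ± 1.67 TPM in siAHCYL1, against 37.8 ± 1.42 TPM in siNC (log2 fold change 0.65, SE 0.070, limma adjusted p = 6.8e-05).

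The enzymes that act on lanosterol and its product also split. CYP51A1, the cytochrome P450 that removes a methyl group from lanosterol (chromosome 7, 92112151 to 92134803), had the smallest fall among those that passed. It had 38.0, 33.4 and 34.9 TPM in siAHCYL1, against 53.1, 43.7 and 40.1 TPM in siNC. The highest siAHCYL1 library and the lowest control library were close, and control replicate 1 stood above the other two. CYP51A1 fell by 0.35 on the log2 scale (SE 0.11, limma adjusted p = 0.0233). The call was lost without siAHCYL1 replicate 2 (-0.31, adjusted p = 0.0784), without siAHCYL1 replicate 3 (-0.34, adjusted p = 0.0583) and without siNC replicate 1 (-0.24, adjusted p = 0.0649), within a range of limma adjusted p from 0.00416 to 0.0784 over 15 fits. TM7SF2, a reductase of the double bond that CYP51A1 leaves behind (chromosome 11, 65111845 to 65116384), went the other way. It had 17.0, 15.8 and 16.9 TPM in siAHCYL1, against 8.11, 11.3 and 13.9 TPM in siNC. The control libraries were spread over 52.2% of their mean, with replicate 1 lowest, while the siAHCYL1 libraries were nearly equal. TM7SF2 rose, with 16.6 ± 0.65 TPM in siAHCYL1 and 11.1 ± 2.90 TPM in siNC (log2 fold change 0.57, SE 0.16, limma adjusted p = 0.0164). Without replicate 1 of both groups the log2 fold change was 0.36 (adjusted p = 0.0363), and over 15 fits the limma adjusted p was at most 0.0424.

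The 3 enzymes that remove the paired methyl groups at one carbon of the sterol all fell. MSMO1, the methylsterol oxidase that starts this removal (chromosome 4, 165327623 to 165343160), had 30.8, 32.0 and 26.5 TPM in siAHCYL1, against 43.5, 45.1 and 45.4 TPM in siNC. MSMO1 fell by 0.57 on the log2 scale (SE 0.087, limma adjusted p = 0.00055), a difference several times the spread within each group. NSDHL, the dehydrogenase that releases the oxidised carbon (chromosome X, 152830967 to 152869729), had 27.9, 29.5 and 27.7 TPM in siAHCYL1, against 43.7, 47.5 and 40.9 TPM in siNC. Its fall was of like size, at -0.62 (SE 0.082, limma adjusted p = 0.00024). HSD17B7, the ketosterol reductase that ends the removal (chromosome 1, 162790702 to 162812817), had the largest fall of the 9 enzymes. It had 15.3, 13.5 and 19.5 TPM in siAHCYL1, against 47.6, 37.4 and 35.4 TPM in siNC. The highest siAHCYL1 library was still well below the lowest control library. The mean was 40.1% of the control level (log2 fold change -1.27, SE 0.15, limma adjusted p = 0.00011). A transcribed pseudogene, HSD17B7P2, could take reads from it, and how the authors' counting split such reads is not known. HSD17B7P2 was listed at 0.33 to 1.08 TPM in siAHCYL1 and at 0.20 to 1.46 TPM in siNC, and did not reach the filter.

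The last 2 enzymes are both part of the microsomal antiestrogen-binding site, and DHCR7 passed the test while EBP did not. EBP, the isomerase that moves the ring double bond (chromosome X, 48521158 to 48528716), had 88.7, 92.7 and 91.6 TPM in siAHCYL1, against 75.1, 77.2 and 101 TPM in siNC. The siAHCYL1 values lay inside the control range, where replicate 3 stood above the other two. EBP did not pass (log2 fold change 0.12, interval at 95% from -0.12 to 0.36, limma adjusted p = 0.372). It passed without siNC replicate 3 (0.25, adjusted p = 0.0205), and over 15 fits the limma adjusted p reached 0.914. DHCR7, which reduces the last ring double bond to leave cholesterol (chromosome 11, 71428193 to 71452868), had 26.4, 25.3 and 26.5 TPM in siAHCYL1, against 50.8, 59.0 and 51.9 TPM in siNC. DHCR7 fell to 26.1 ± 0.65 TPM in siAHCYL1, against 53.9 ± 4.43 TPM in siNC, or 48.4% of the control level (log2 fold change -1.02, SE 0.082, limma adjusted p = 1.3e-05). It had the smallest adjusted p of the 9.

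**Figure D2:**
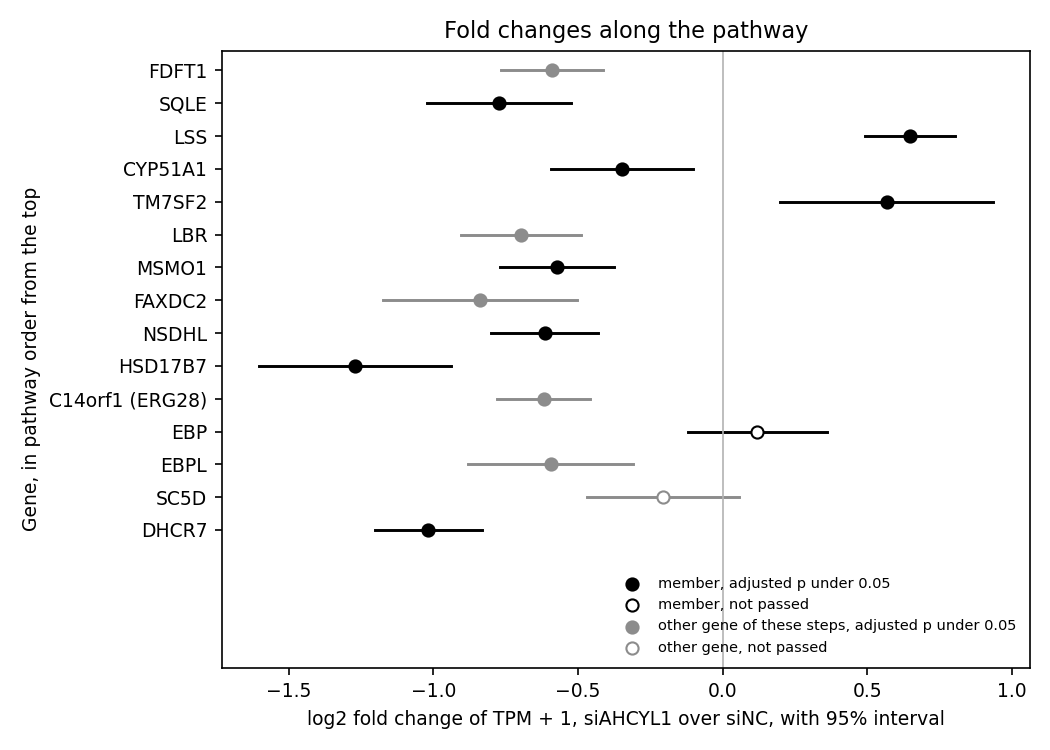
Log2 fold change of TPM + 1, siAHCYL1 over siNC, with the 95% interval, in pathway order from the top. The 9 enzymes are black. The 6 other tested genes taken with these steps are grey, among them FDFT1, which makes squalene and acts before SQLE. Filled points had an adjusted p under 0.05, and LSS (0.65) and TM7SF2 (0.57) are the only filled points right of 0.

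The order of the levels differed between the groups. In siAHCYL1, EBP was highest (91.0 TPM), followed by LSS (59.8 TPM) and CYP51A1 (35.4 TPM), each clear of the next. MSMO1, NSDHL, SQLE and DHCR7 followed with means of 29.8, 28.4, 27.4 and 26.1 TPM, and each of these overlapped its neighbour in the order. TM7SF2 and HSD17B7 came last at 16.6 and 16.1 TPM and overlapped too. In siNC, EBP (84.4 TPM) was also highest, but the 7 genes from DHCR7 (53.9 TPM) to LSS (37.8 TPM) each overlapped the next, and TM7SF2 (11.1 TPM) was lowest and apart. LSS thus stood in place 2 in siAHCYL1 and in place 8 in siNC, and DHCR7 in place 7 in siAHCYL1 and in place 2 in siNC.

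Each enzyme's part of the summed level was also read within single libraries. LSS made up 17.5%, 18.1% and 18.6% of the summed TPM of the 9 genes in siAHCYL1, against 9.2%, 9.5% and 9.0% in siNC. HSD17B7 made up 4.6%, 4.1% and 5.9% in siAHCYL1, against 11.7%, 9.1% and 8.7% in siNC. EBP was the largest part in all 6 libraries, with 26.6% to 28.3% in siAHCYL1 and 18.4% to 24.8% in siNC. CYP51A1 kept nearly the same part, with 10.2% to 11.4% in siAHCYL1 and 9.8% to 13.0% in siNC, and these ranges overlapped.

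**Figure D3:**
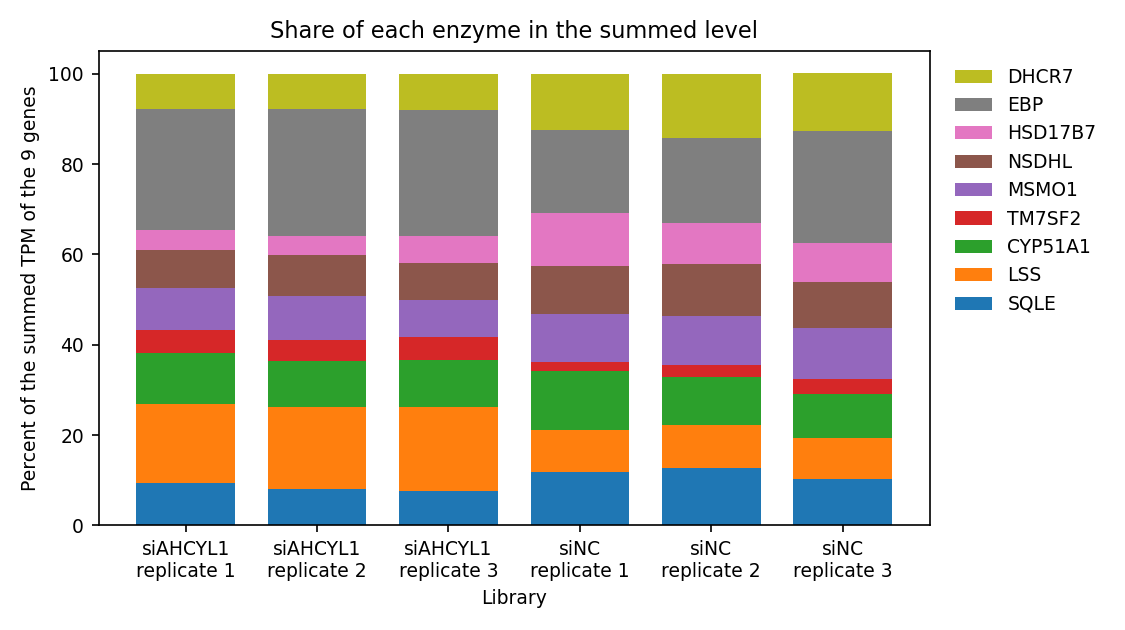
Stacked bars of each enzyme's percent of the summed TPM of the 9 genes in each library, siAHCYL1 on the left and siNC on the right. The LSS segment is 17.5% to 18.6% in siAHCYL1 and 9.0% to 9.5% in siNC, and the HSD17B7 and DHCR7 segments are smaller in siAHCYL1.

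Ratios between 5 pairs of genes within a library, which do not depend on the scaling of that library, were computed as well. The ratio of LSS to SQLE was 1.87, 2.27 and 2.47 in siAHCYL1, against 0.78, 0.75 and 0.87 in siNC, so the enzyme with the higher level of the pair was LSS after the AHCYL1 siRNA and SQLE in the controls. The ratio of EBP to DHCR7 was 3.36, 3.66 and 3.45 in siAHCYL1, against 1.48, 1.31 and 1.94 in siNC. The ratio of TM7SF2 to CYP51A1 was 0.45, 0.47 and 0.49 in siAHCYL1, against 0.153, 0.26 and 0.35 in siNC. HSD17B7 to NSDHL, neighbours in methyl removal, had ratios of 0.55, 0.46 and 0.70 in siAHCYL1, against 1.09, 0.79 and 0.87 in siNC. The last pair was TM7SF2 and LBR, the lamin B receptor of the nuclear membrane, which carries the same reductase activity. Their ratio was 0.108, 0.121 and 0.134 in siAHCYL1, against 0.034, 0.050 and 0.067 in siNC. The groups did not overlap in any of the 5 ratios. The exact two-sided permutation p was 0.1 for each, also when adjusted over the 5, the smallest that 3 against 3 allows. For LSS to SQLE, TM7SF2 to CYP51A1 and TM7SF2 to LBR this was fixed by the single genes. In each of these pairs the first gene lay wholly higher and the second wholly lower, so the ratio is no separate result. EBP to DHCR7 and HSD17B7 to NSDHL are no separate results either. Their single-gene values were far enough apart that no matching of libraries within a group could make the ratios overlap.

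**Figure D4:**
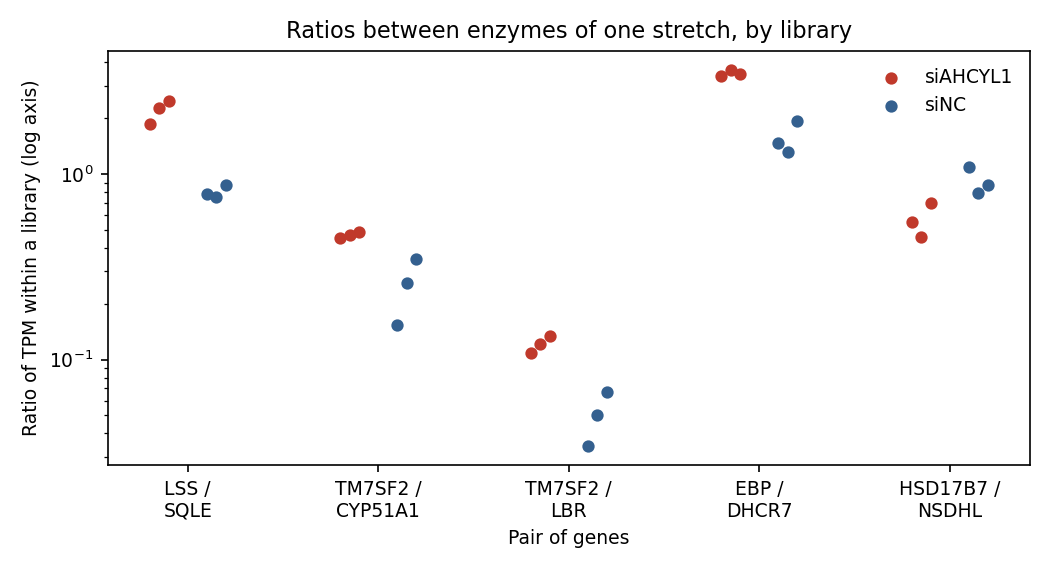
Ratio of TPM between the genes of 5 pairs in each library, on a log axis, with siAHCYL1 in red and siNC in blue, 3 points each. The red points are higher for LSS to SQLE, TM7SF2 to CYP51A1, TM7SF2 to LBR and EBP to DHCR7, and lower for HSD17B7 to NSDHL.

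LBR itself fell while TM7SF2 rose, although LBR was the more abundant of these reductases in every library. LBR had 157, 131 and 126 TPM in siAHCYL1, against 238, 226 and 207 TPM in siNC (log2 fold change -0.70, SE 0.092, limma adjusted p = 0.00023). LBR was among 7 further genes taken as enzymes or homologs of the same steps, of which 6 were tested, 5 fell and 0 rose. Of all tested genes, 21.2% were called lower and 30.4% higher. FDFT1, which makes squalene and so acts just before these steps, was counted among the 7 further genes. It fell as well, with 122, 111 and 109 TPM in siAHCYL1, against 173, 186 and 158 TPM in siNC (log2 fold change -0.59). C14orf1, also called ERG28 and known in yeast as a scaffold of the methyl-removing enzymes, fell by 0.62 on the log2 scale. EBPL, a homolog of EBP, fell by 0.59, and FAXDC2, a hydroxylase homolog at 2.68 to 4.01 TPM in siAHCYL1 and 6.46 to 7.29 TPM in siNC, fell by 0.84. SC5D, the desaturase between EBP and DHCR7, had 15.3, 13.9 and 13.7 TPM in siAHCYL1, against 19.2, 16.6 and 14.5 TPM in siNC, and did not pass (-0.21, limma adjusted p = 0.166). It passed under median-of-ratios scaling (-0.27, adjusted p = 0.0458) and quantile normalization (-0.30, adjusted p = 0.0305).

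The proteins that feed electrons to the oxygen-using enzymes, and sterol-binding partners, also went both ways. Of 9 such genes tested, 4 fell and 1 rose (median log2 fold change -0.15), where 21.2% of all tested genes fell and 30.4% rose. POR, the reductase that supplies CYP51A1 and SQLE, had 328, 300.1 and 322 TPM in siAHCYL1, against 502, 499.7 and 468 TPM in siNC (-0.63), so it fell together with both. TMEM97, a sterol-responsive membrane protein, had 92.2, 80.9 and 80.0 TPM in siAHCYL1, against 119, 107 and 102 TPM in siNC (-0.37). CYB5R3, the cytochrome b5 reductase whose electrons reach MSMO1, had 184, 193 and 182 TPM in siAHCYL1, against 141, 144 and 136 TPM in siNC (0.41), and rose where MSMO1 fell. CYB5A, a cytochrome b5, fell (-0.37, limma adjusted p = 0.0116). It had 26.4, 31.3 and 31.75 TPM in siAHCYL1, against 35.15, 40.4 and 40.9 TPM in siNC. CYB5B (0.03, limma adjusted p = 0.778) and another reductase, CYB5R1 (0.13, limma adjusted p = 0.373), did not pass.

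The steps before squalene and the sterol sensors are given by count. Of all tested genes, 21.2% were called lower and 30.4% higher, so counts near these shares are common. Of 8 mevalonate and isoprenoid genes tested, 5 fell and 1 rose (median log2 fold change -0.37), among them HMGCS1 (-1.39) and ACAT2 (-0.84), early enzymes of the route, down and GGPS1 (0.54), which makes a longer isoprenoid outside the sterol branch, up. Of 12 genes of sterol sensing and SREBP processing, 3 fell and 4 rose (median -0.02), near the shares over all tested genes. SREBF2 fell, with 52.9, 47.0 and 46.5 TPM in siAHCYL1, against 115, 124 and 118 TPM in siNC (-1.27). INSIG1, which retains SREBP in the endoplasmic reticulum, fell (-0.49, limma adjusted p = 0.0183), a call lost without siAHCYL1 replicate 2 (adjusted p = 0.0615), siAHCYL1 replicate 3 (0.0576) or siNC replicate 2 (0.0772). NR1H2, the sterol receptor LXR beta, rose (0.75), as did MBTPS1, a protease that cuts SREBP (0.48). NR1H3, also counted as higher, had 4.14, 2.94 and 3.91 TPM in siAHCYL1, against 1.14, 0.33 and 0.88 TPM in siNC. It met the filter through the siAHCYL1 libraries, so its call is a description. Of 9 genes for degradation of sterol enzymes in the endoplasmic reticulum, 2 fell and 3 rose (median -0.03), also near the shares over all tested genes. UBE2G2, a ubiquitin-conjugating enzyme, rose (0.61), and so did RNF139, a sterol-responsive ubiquitin ligase (0.31, limma adjusted p = 0.0179), which missed the threshold without siAHCYL1 replicate 2 (adjusted p = 0.0626) or siNC replicate 2 (0.0659). FAF2, which helps extract proteins from the membrane, fell (-0.43), as did UBE2J2 (-0.28), an E2 enzyme that acts in SQLE degradation.

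Measurements that could touch the 9 values were read alongside. The 7-mer GTATGCA in the 3′ UTR, taken from earlier results of these data, where it went with lower fold changes, was carried by 1137 of 11935 genes searched, of which 37.3% were called lower, against 20.9% of genes without it. None of the 9 enzymes carried it in GENCODE 29 transcripts, and neither did most of the genes searched. The libraries do not tell strands apart, and in that annotation 2 antisense genes overlap LSS and 1 overlaps DHCR7. On the same strand, AC000120.2 overlaps 22645 bases and AC000120.3 overlaps 3030 bases of CYP51A1, and RF00017 overlaps 327 bases of EBP. These overlapping genes have no value here. CYP51A1-AS1 reached at most 0.2 TPM in siAHCYL1 and 0.34 TPM in siNC. VPS51, which shares 16 bases with TM7SF2, had 59.3 to 64.0 TPM in siAHCYL1 and 61.6 to 66.3 TPM in siNC (log2 fold change -0.06, limma adjusted p = 0.503). The summed level of 5 fibroblast markers was 26.1 to 32.4 TPM in siAHCYL1 and 15.3 to 17.9 TPM in siNC, with 1 marker higher (LUM), 1 lower (COL1A1, which passed the filter through siNC alone) and PDGFRA at 0 throughout. The sum of 4 endothelial markers was 6.26 to 7.19 TPM in siAHCYL1 and 8.81 to 11.2 TPM in siNC, with 1 marker lower (KDR) and VWF at 0. The KDR call (limma adjusted p = 0.0133) was lost without siAHCYL1 replicate 2 (0.0523) or siNC replicate 2 (0.0614). The sums of 6 epithelial markers, 17.5 to 17.8 TPM in siAHCYL1 and 17.4 to 21.6 TPM in siNC, and of 5 immune and blood markers, 11.35 to 17.4 TPM in siAHCYL1 and 13.9 to 28.2 TPM in siNC, overlapped between the groups, with CDH1, KRT5, CD3E and HBB at 0. Both tested markers of each list passed, in opposite directions. PTPRC, a leukocyte surface phosphatase, had 10.7, 7.62 and 7.30 TPM in siAHCYL1, against 3.66, 3.19 and 3.49 TPM in siNC (log2 fold change 1.09), and HBA1, a globin, had 6.25, 9.08 and 3.71 TPM in siAHCYL1, against 24.2, 19.9 and 9.95 TPM in siNC (-1.36). The keratin KRT8 was higher (0.90) and KRT18 lower (-0.27). KRT8 had 0.47, 1.54 and 0.60 TPM in siNC, so it met the filter through the siAHCYL1 libraries and its call is a description. The KRT8 call was lost without replicate 1 of both groups (limma adjusted p = 0.0702), and the KRT18 call (0.0442) when any 1 siAHCYL1 library, siNC replicate 2 or siNC replicate 3 was left out (adjusted p 0.0682 to 0.172). With all libraries and no filter, the KRT18 call was lost as well (limma adjusted p = 0.064). The part of these and the melanocytic markers in the enzymes' values was not tested.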

How the data were processed

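RNA was measured in 6 libraries of HMCB cells, 3 siAHCYL1 and 3 siNC, made without strand information per the labels' protocols. The authors deposited 1 table of TPM, made with STAR and RSEM on GRCh38 per the submitters' processing notes with versions and annotation not given in the sources used here. Columns named si were assigned to siAHCYL1 and those named nc to siNC. TPM sums to the same total in each library, so depth is unknown and no counting interval was computed.

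The 13266 genes that reached 1 TPM in 3 or more libraries were tested on log2(TPM + 1) with limma 3.58.1 (R 4.3.3), a moderated two-sided test with an intensity trend, Benjamini-Hochberg adjustment over all genes and a threshold of 0.05. The log2 scale with a pseudocount of 1 understates changes at low levels. The group was the single term of the model. The script was tested on simulated data. Single ratios were tested by exact permutation.

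The 9 enzymes and the 7 further gene lists were chosen with earlier results of these data known. All 74 list entries matched a row, 2 by an older symbol; some genes of these lists and of the marker lists are not reported here and are in none of the counts over lists. Named were the 9 enzymes, AHCYL1 and all other genes of the same steps. From each further list up to 2 changed genes in each direction were named, smallest adjusted p first. Cell type markers, overlapping genes, NR1H3, CYB5A, CYB5B and CYB5R1 were outside this rule. Gene positions and 3′ UTRs come from GENCODE 29 and promoters from RefSeq. Python 3.11.15 was used. The alternatives were: each library left out; replicate 1 of both groups left out; a block for the replicate number; robust moderation without the intensity trend; quantile normalization; median-of-ratios scaling; a 5 TPM filter; no filter; and a pseudocount of 0.1.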

Additional observations from a re-analysis of the deposited data

How the results depend on the processing

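Across 14 other fits, the 9 enzymes each kept their direction, and each kept its side of the threshold in at least 11. Of 126 values, 122 stayed on their side, 3 lost the call (all CYP51A1) and 1 gained it (EBP). The number of enzymes changed was 8 in each fit with all libraries and 7 to 9 with 1 library left out. The number of genes changed was 6844, from 6055 (filter at 5 TPM) to 7919 with all libraries, and from 5566 to 6725 with 1 library left out. The log2 fold change ranged from -0.87 to -0.70 for SQLE, 0.55 to 0.67 for LSS, -0.44 to -0.24 for CYP51A1, 0.36 to 0.73 for TM7SF2, -0.67 to -0.49 for MSMO1, -0.71 to -0.56 for NSDHL, -1.41 to -1.12 for HSD17B7, 0.02 to 0.25 for EBP and -1.11 to -0.95 for DHCR7. The calls lost or gained were all in fits with 1 library left out, and their cause was not tested. The replicate numbers were not taken as pairs in the main fit. The deviations of libraries with the same number correlated at 0.233, 0.001 and 0.154, and 4 of 6 libraries correlated best with their own number. Whether libraries of the same number share an effect was not tested. With the replicate block 7919 genes and 8 enzymes changed. What depth limits is unknown, because TPM keeps none.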

Other observations

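Genes that move or store cholesterol after it is made are a part of sterol handling not described above. Of 11 genes tested for uptake, transport and efflux, 5 fell and 4 rose (median log2 fold change -0.23). Of all tested genes, 21.2% were called lower and 30.4% higher. NPC1, which exports cholesterol from lysosomes, had 41.5, 35.9 and 35.5 TPM in siAHCYL1, against 63.8, 67.2 and 61.9 TPM in siNC (-0.76). ABCG1, a sterol exporter, was listed at 0.17, 0.28 and 0 TPM in siAHCYL1, against 2.30, 2.07 and 2.54 TPM in siNC. It passed the filter through the siNC libraries alone, so it is given as a description, although it is one of the 5 counted as lower. Its log2 fold change was -1.53 with a pseudocount of 1 and -3.46 with 0.1. LIPA, the lysosomal lipase that frees cholesterol from its esters, rose, with 74.5, 68.7 and 65.6 TPM in siAHCYL1, against 48.6, 52.7 and 51.7 TPM in siNC (0.44). SCARB1, a lipoprotein receptor, rose too (0.29).

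Of 4 genes tested for esterification and oxidation, 3 fell and 1 rose (median -0.61), where 21.2% of all tested genes fell and 30.4% rose. NCEH1, a cholesteryl ester hydrolase, had 21.2, 19.4 and 17.9 TPM in siAHCYL1, against 37.9, 32.0 and 31.6 TPM in siNC (-0.76). CYP27A1, a mitochondrial sterol hydroxylase, fell (-0.65), and HSD3B7, an enzyme of bile acid synthesis, rose (0.87).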
